A study of Mus musculus with 12 samples.

Results

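Long H3K27ac stretches are autosomal H3K27ac peaks whose end minus start reached 10000 bp or more among the peaks called with SEACR (Sparse Enrichment Analysis for CUT&RUN), and 784 of the 61679 H3K27ac peaks on chromosomes 1 to 19 met that rule. Chromosome X held 7 further peaks of that length, which were not members, and the whole H3K27ac peak set held 62547 peaks. Each stretch was assigned to the protein-coding genes of the mm10 mouse build that it overlapped. The libraries came from mouse intestinal organoids, which are crypt epithelium grown in Matrigel with EGF, Noggin, R-spondin and CHIR-99021, treated for 6 days with vehicle or with 25 µM AA (arachidonic acid). CUT&RUN, which frees antibody-bound chromatin with a tethered nuclease, was run for H3K27ac, H3K4me3 and H3K27me3 with 2 libraries per mark and group, 12 in all. The labels say nothing of separate cultures, and the p-values therefore cover only library-to-library spread, possibly technical. The series text speaks of organoids lacking a Ptger gene, while the labels of the vehicle and AA libraries give no genotype, and whether both groups carried that deletion was not settled here.

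Acetylation of lysine 27 on histone H3 marks active enhancers and promoters. Runs of closely spaced acetylated elements around a gene, often called super-enhancers or stretch enhancers, are known for lying at the genes that define a cell type. H3K4me3 is deposited mainly at active and poised transcription starts, and H3K27me3 is the Polycomb mark of repressed genes, which chemically excludes acetylation of the same lysine residue. In the intestinal crypt, factors such as CDX2, HNF4A and GATA4 hold the epithelial program, while Wnt and EGF signals maintain the stem cells. Arachidonic acid is a fatty acid that is oxidised in mitochondria and peroxisomes and is the precursor of prostaglandins.

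All values are the deposited peak scores, the mean coverage per base of a peak multiplied by 1 factor per library. Divided by the smallest step of each library, the median stretch had a mean of 3.35 to 5.07 reads over each base in the 4 H3K27ac libraries. Of 10 epithelial markers, 9 were overlapped by a stretch (all but Epcam), and their summed H3K27ac score at the gene ends ran from 5.54 to 6.08 in vehicle and from 6.68 to 6.72 in AA. None of the 8 fibroblast markers and none of the 6 endothelial and glial markers had an H3K27ac peak at a gene end, and 4 of 6 blood markers had none. The blood markers with one were Itgam and Spi1, at scores from 0.144 to 0.235. For H3K4me3, 5 of the 8 fibroblast, 4 of the 6 blood and 5 of the 6 endothelial and glial markers had no peak there. Among fibroblast markers Col1a1 had H3K4me3 scores of 0.456 to 0.633, beside 0.584 to 0.738 at the epithelial marker Krt8.

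The sequences of 6 starts that lie in or within 1 kb of a stretch follow, because H3K4me3 passed the test in the peaks at 5 of them and Lrig1 has the longest stretch without broad H3K27me3. Each is the 250 bases before the annotated start, from RefSeq on GRCm38.p6 (mm10), written 5′ to 3′ along the gene. Capitals mark every match, on either strand, to the GC box GGGCGGG, the CCAAT box, the cAMP response element core TGACGTC, the TATA box TATAAA and the E-box CACGTG. The windows are chr6:94700146-94700395 (minus strand) for Lrig1, chr12:57546112-57546361 (minus) for Foxa1, chr2:180334680-180334929 (minus) for Gata5, chr13:54611374-54611623 (minus) for Cltb, chr1:36471347-36471596 (plus) for Cnnm4 and chr9:57939862-57940111 (plus) for Sema7a.
Lrig1: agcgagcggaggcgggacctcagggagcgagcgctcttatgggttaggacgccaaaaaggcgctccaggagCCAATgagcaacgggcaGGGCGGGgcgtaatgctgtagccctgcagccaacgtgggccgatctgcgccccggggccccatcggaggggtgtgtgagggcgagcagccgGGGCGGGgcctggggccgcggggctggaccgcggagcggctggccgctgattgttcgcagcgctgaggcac
Foxa1: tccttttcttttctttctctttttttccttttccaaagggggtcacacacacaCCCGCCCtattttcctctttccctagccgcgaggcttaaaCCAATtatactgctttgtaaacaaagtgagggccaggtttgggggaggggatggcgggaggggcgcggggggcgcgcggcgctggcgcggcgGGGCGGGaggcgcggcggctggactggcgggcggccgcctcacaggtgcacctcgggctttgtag
Gata5: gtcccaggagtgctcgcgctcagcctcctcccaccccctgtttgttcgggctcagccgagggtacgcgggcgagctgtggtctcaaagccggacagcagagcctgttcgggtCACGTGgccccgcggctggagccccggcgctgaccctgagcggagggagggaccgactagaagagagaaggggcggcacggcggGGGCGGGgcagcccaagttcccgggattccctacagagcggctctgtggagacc
Cltb: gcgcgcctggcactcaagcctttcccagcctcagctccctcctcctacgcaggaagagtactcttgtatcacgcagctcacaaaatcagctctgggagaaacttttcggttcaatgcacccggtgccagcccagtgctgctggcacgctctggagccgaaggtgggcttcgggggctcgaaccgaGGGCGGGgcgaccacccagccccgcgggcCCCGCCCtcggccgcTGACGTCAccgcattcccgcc
Cnnm4: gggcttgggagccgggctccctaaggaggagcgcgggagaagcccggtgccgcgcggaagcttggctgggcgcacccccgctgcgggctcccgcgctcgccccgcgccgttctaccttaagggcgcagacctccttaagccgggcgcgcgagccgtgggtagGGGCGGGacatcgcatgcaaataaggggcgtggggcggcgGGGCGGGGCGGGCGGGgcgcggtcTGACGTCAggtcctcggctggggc
Sema7a: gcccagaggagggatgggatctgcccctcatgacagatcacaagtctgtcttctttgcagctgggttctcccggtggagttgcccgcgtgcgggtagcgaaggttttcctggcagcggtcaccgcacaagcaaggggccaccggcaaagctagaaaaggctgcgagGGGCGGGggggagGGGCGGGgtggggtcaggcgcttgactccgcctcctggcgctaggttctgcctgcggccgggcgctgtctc

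All 6 windows held at least 1 GC box, and Cltb and Cnnm4 each held the cAMP response element core on both strands at the same place. Among the 570 tabulated promoters (470 genes) with a start in or within 1 kb of a stretch, 45.1% held a GC box against 31.7% of all 20084 promoters. The TGACGTC core was in 5.61% against 3.43%, the E-box in 9.47% against 6.69%, the CCAAT box in 37.7% against 35.3% and the TATA box in 8.6% against 11.7%. These promoters were also richer in G and C, with a median of 60.8% against 56% and 17 against 10 CpG pairs in the 250 bases, and the part of base composition in the motif shares was not tested. A match describes letters in this window and not binding.

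The 784 stretches spanned 10966 kb, which was 1.27% of the autosomal H3K27ac peaks and 6.45% of their bases. Their median length was 12012 bp (quartiles 10803 and 14323), 164 reached 15 kb, 72 reached 20 kb and the longest was 81847 bp. At the threshold, the 3 shortest members measured 10001 bp (the predicted gene 1110051M20Rik), 10006 bp (no gene) and 10007 bp (Wasl, an activator of actin branching). The 3 longest non-members measured 9999 bp (Ehd4), 9993 bp (Cers6) and 9991 bp (Abhd2). The mean scores of these 3 were 0.178, 0.371 and 0.34, beside 0.238, 0.378 and 0.343 for the 3 members. Of the stretches, 680 overlapped a protein-coding gene, 545 of them exactly 1, and 104 overlapped none. Together they touched 794 of 21896 genes, whose median length of 30020 bp exceeded the 17149 bp of all genes.

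Some genes were covered from end to end, and others held several stretches. In all 119 genes lay wholly inside a stretch, among them Cdx2, Elf3, Krt19, Cldn3, Actg1, Junb, Ier2, Zfp36 and Cdkn1b. Ankrd11, a chromatin regulator, and Mgat5, a glycosyltransferase that branches N-glycans, held 4 stretches each. Cftr, the chloride channel, and Rreb1, a zinc-finger factor downstream of Ras, held 3 each, and 3 stretches covered 91.95% of Ide, which encodes insulin-degrading enzyme. The nearest other H3K27ac peak was a median of 1268 bp away, against 3380 bp for all H3K27ac peaks, and 346 stretches (44.1%) had a neighbour within 1 kb against 23.7%.

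Transcription factors of intestinal identity were the gene list most often overlapped. Stretches covered part of 11 of its 22 genes (50%), among them Cdx1, Cdx2, Hnf4a, Gata4, Gata6, Klf5, Elf3, Ehf, Foxa1 and Onecut2, against 3.63% of all genes. Epithelial structure genes (keratins, junction and cytoskeleton proteins) followed with 17 of 37. Crypt stem cell genes had 9 of 24, Smoc2, Ephb3, Rnf43, Prom1, Slc12a2, Cdca7, Lrig1, Rgmb and Hopx. Housekeeping genes had 5 of 16, stress and immediate early genes 8 of 36, and signalling receptors and inhibitors 6 of 33. Cell cycle genes had 3 of 16, Wnt targets 3 of 22, fatty acid oxidation genes 3 of 31 and the prostaglandin pathway 2 of 23. Enterocyte genes had 2 of 27 (Mttp and Vil1), Krt23 was the only gene of 25 of the fetal and regenerative list, Tead1 the only gene of 25 of the YAP and TAZ list, and Hdac3 the only gene of 27 of the Polycomb and histone modifier list. None of 28 secretory lineage genes and none of the fibroblast, blood or endothelial and glial genes lay in a stretch. Long genes are more easily overlapped, and the part of gene length in these counts was not tested.

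A group of 50 stretches was also covered by H3K27me3 peaks, over 65.6% to 100% of the length, whereas H3K27me3 peaks covered at most 40.9% of any of the other 734. The division was drawn at 50% after the values were seen, and 545 of the 784 stretches had no H3K27me3 peak at all. The 50 lay in 14 neighbourhoods and included 8 of the 10 longest stretches. On chromosome 8, 19 of them fell between positions 19694128 and 20832662, a segment with predicted genes only. Others lay at the Sp110 and Sp140 cluster on chromosome 1 (85073003 to 85629212), at the Ugt1a and Hjurp genes (1:88210601 to 88311060), at the Sprr2a genes on chromosome 3, at Sfi1 on chromosome 11 and near Zfp978 on chromosome 4. Of the 50, 24 overlapped no protein-coding gene against 80 of the other 734. The Sprr2a and predicted genes are near-identical copies that can share reads, so values there are uncertain. How such reads were counted is not stated in the sources here. The Ugt1a genes instead overlap one another on the same bases, so a stretch there is assigned to several of them.

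Scores in that group were not uniform. Their median H3K27ac score was 0.311, close to the 0.337 of the other 734, and their H3K27me3 score was 0.257 against 0.115 for all H3K27me3 peaks. The stretch at the start of the assembled chromosome 9 (chr9:2999991-3038701, no gene) had H3K27ac scores of 79.4 and 81.1 in vehicle and 35.3 and 64 in AA, far above every other stretch. Its H3K4me3 peak scored 121 and 122 in vehicle and 134 and 139 in AA. The AA libraries were thus lower for the acetyl mark and higher for the methyl mark. How reads in this region were counted is not stated in the sources here, so neither direction can be read as a response. The longest stretch (chr11:3118802-3200648) lay at Sfi1, which encodes a centrosome protein. It scored 2.1 and 2 in vehicle and 2.05 and 2.11 in AA, with the groups overlapping. Only 3 stretches had a mean score above 1, these at chromosome 9 and Sfi1 and a stretch at chr18:3003868-3013915 (1.82). Values at all 3 are uncertain for the same reason.

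**Figure D1:**
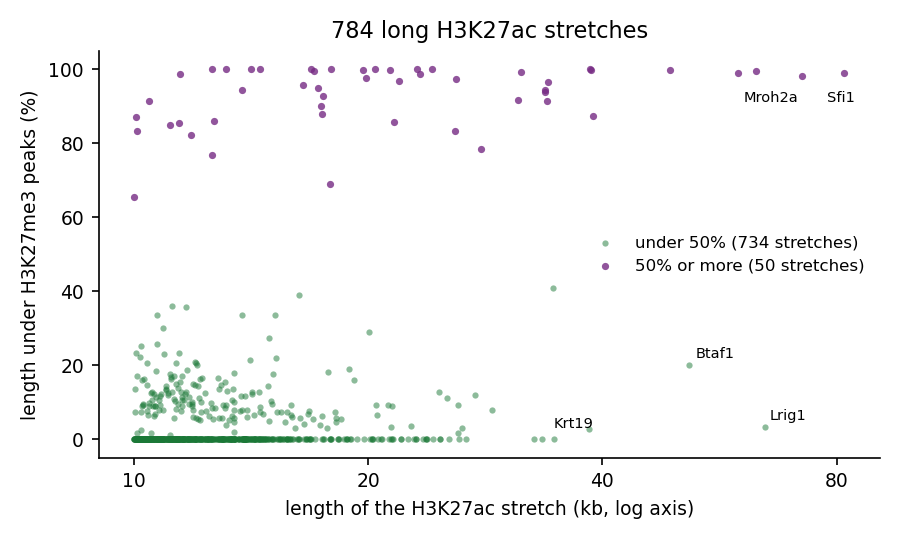
Share of each stretch under H3K27me3 peaks (percent, vertical) against the length of the stretch (kb, log axis), 1 point per stretch. The 50 stretches at 50% or more sit at 65.6% to 100% and include Sfi1 and Mroh2a, while Lrig1 and Btaf1, at 3.2% and 20.1%, are the longest of the 734 others.

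Outside that group the longest stretches lay at Lrig1 (64689 bp, chr6:94634787-94699475), which encodes a membrane inhibitor of EGF receptors and marks crypt stem cells, and at Btaf1 (51701 bp, chr19:36921298-36972998), which encodes a remover of TATA-binding protein. Vmp1, a membrane protein needed for autophagy, followed with 38471 bp and Krt19, a keratin of simple epithelium, with 34643 bp, and the longer of the 2 Gata4 stretches measured 32627 bp. H3K27me3 peaks covered 3.2% of the Lrig1 stretch, 20.1% of the Btaf1 stretch, 2.89% of the Vmp1 stretch and none of the Krt19 and Gata4 stretches. The Lrig1 stretch covered 67.6% of the gene and ended 670 bp short of its annotated start.

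Where a stretch met a gene start, most of it lay on the gene's side. Starts were available for 17491 genes, none of them on chromosome 18, and 354 stretches held at least 1, or 383 within 1 kb. In the 261 stretches with exactly 1 start in or within 1 kb, a median of 9105 bp lay downstream of the start and 3102 bp upstream. More bases lay downstream in 207 of them (79.3%). The same lean was present in shorter peaks, with 80.5% of those of 5 to 8 kb and 68.8% of those of 2 to 3 kb, so it was not particular to long stretches.

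**Figure D2:**
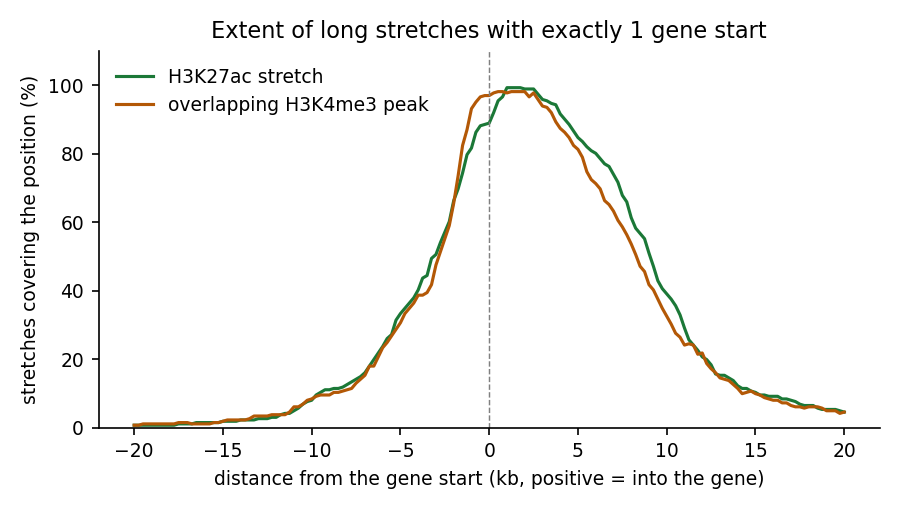
Percent of the 261 stretches with exactly 1 gene start (vertical) that cover each position from 20 kb before to 20 kb after it (horizontal), for the H3K27ac stretch (green) and its overlapping H3K4me3 peaks (orange). H3K27ac covered the position 5 kb before the start in 33.3% of these stretches and the position 5 kb after it in 84.7%. H3K4me3 peaks followed the same outline.

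AA left the long stretches without a change that passed the test. Of 784 stretches, 0 were called higher and 0 lower in AA by limma with Benjamini-Hochberg adjustment over all 62547 H3K27ac peaks, where 0.155% were called higher and 0.0448% lower. The lowest adjusted p among the stretches was 0.282. At an unadjusted p under 0.05 there were 46, with 44 higher and 2 lower, a share below the 7.71% of all peaks. With the variance trend taken over summed coverage instead of the mean score, an alternative added after seeing the data, 2 stretches were called higher, those at Hook2 and Junb (adjusted p = 0.0169) and at Actn1 (adjusted p = 0.0445), beside 0.0368% of all peaks in either direction. Without AA library 2, 1 stretch was called lower, the one at the start of chromosome 9.

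The scores themselves stood slightly higher in AA. With vehicle the median stretch scored 0.324 and 0.308, and with AA 0.369 and 0.343, both AA medians being the higher. The median log2 change, AA minus vehicle, was 0.15 over the stretches and 0.11 over all H3K27ac peaks, with individual stretches from -0.75 to 0.49. A change above 0 was present in 700 stretches (89.3%), against 63.2% of all H3K27ac peaks and 88.6% of those of 8 to 10 kb. Both AA libraries exceeded both vehicle libraries in 486 stretches (62%). The share was 28.5% of all H3K27ac peaks, 48.8% of peaks of 5 to 10 kb and 55.5% of those of 8 to 10 kb. Both AA libraries lay below in 21 stretches (2.68%), against 10.7%, 3.7% and 2.14% in these sets. The libraries were also closer to each other here, with a median SD within groups of 0.0858 log2 units against 0.248 over all peaks, which bears on how often groups overlap. This height depended on the scaling. With each library centred on its median over all peaks the median change was 0.08, and both AA libraries were higher in 351 stretches (44.8%) against 21.5% of all peaks. With quantile normalization the median was 0.03. Centred on the peaks of 5 to 10 kb (added after seeing the data) it was 0.01. Both AA libraries were then higher in 166 stretches (21.2%) against 14.8% of all peaks, and both lower in 157 (20%) against 21.3%. The number of stretches above 0 was 591 with each library centred on its median, 455 with quantile normalization and 406 with the last centring.

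From 2 kb upward the median change differed little between length classes, while shorter peaks were lower. It was -0.22 in peaks under 1 kb, 0.01 in those of 1 to 2 kb, 0.14 in those of 2 to 3 kb, 0.15 in those of 3 to 5 kb, 0.15 in those of 5 to 8 kb and 0.16 in those of 8 to 10 kb, and across the 784 stretches the Spearman correlation of length with change was -0.007 as a description. The typical SE of a stretch's change was 0.17, and for 783 of 784 stretches the 95% interval of the change stayed within 1 log2 unit of 0, the exception being the start of chromosome 9. Smaller changes were not resolved with 2 libraries per group. In the 50 stretches under H3K27me3 the median change was 0.03, and in the other 734 it was 0.16.

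**Figure D3:**
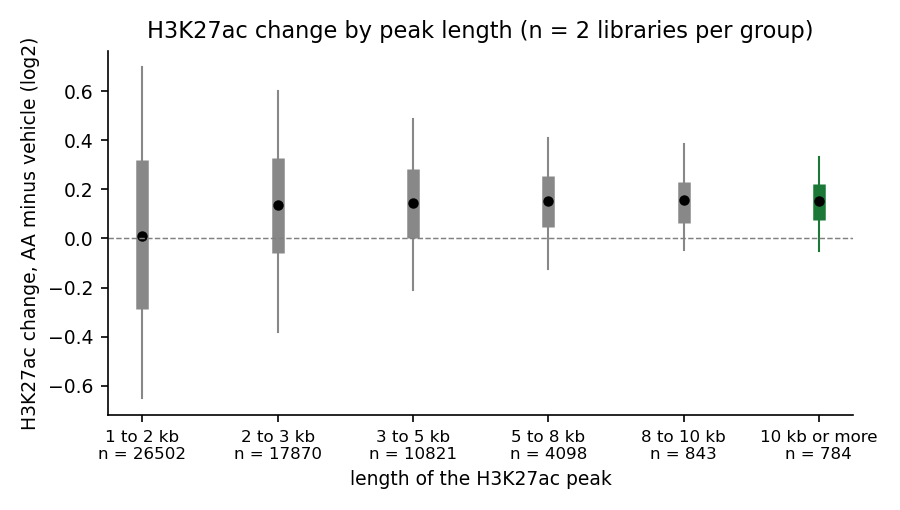
H3K27ac change (AA minus vehicle, log2) of peaks on chromosomes 1 to 19 by length class. Black points are medians, thick bars the quartiles and thin lines the 5th to 95th percentiles over peaks, and the medians lie between 0.14 and 0.16 from 2 kb upward while the spread narrows with length.

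At the identity factors, all 12 stretches had a change above 0 and none was called. Both AA libraries exceeded both vehicle libraries in 11 of the 12, with a median change of 0.17. Over all 784 stretches, 62% had both AA libraries higher and 89.3% a change above 0, with a median of 0.15. Cdx2, the homeobox factor of hindgut identity, lay wholly within a stretch of 20465 bp that scored 0.439 and 0.427 in vehicle and 0.519 and 0.498 in AA. Its AA libraries were both higher, and the change of 0.20 ± 0.14 (SE, n = 2 libraries per group) had an adjusted p of 0.768 by limma. The longer Gata4 stretch scored 0.462 and 0.444 in vehicle and 0.499 and 0.501 in AA, again with both AA libraries above. Ehf, an ETS factor of epithelia, scored 0.494 and 0.455 in vehicle and 0.531 and 0.46 in AA, where the groups overlapped. At Cdx1 the scores were 0.339 and 0.325 in vehicle and 0.395 and 0.369 in AA, and at Onecut2 0.356 and 0.332 against 0.448 and 0.454, a change of 0.33 with an unadjusted p of 0.033. These directions depended on the scaling, with 11 of the 12 above 0 after median centring and 8 after quantile normalization or after centring on the peaks of 5 to 10 kb. Under quantile normalization the change stayed above 0 in Cdx2 (0.04) and Onecut2 (0.18) and was below 0 in the longer Gata4 stretch (-0.04), Ehf (-0.11) and Gata6 (-0.02).

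Crypt stem cell genes had 6 of 10 stretches above 0 (4 of 10 under quantile normalization), a median change of 0.13 and none called. Lrig1 scored 0.348 and 0.344 in vehicle and 0.404 and 0.387 in AA, both AA libraries being higher by a change of 0.16 ± 0.16. Rnf43, which encodes a ligase that removes Wnt receptors from the membrane, held a pair of stretches that differed in direction. The longer scored 0.348 and 0.307 in vehicle and 0.372 and 0.36 in AA, and the shorter 0.324 and 0.311 in vehicle and 0.302 and 0.309 in AA, with no overlap of groups in either. Neither change, 0.14 and -0.05, exceeded its SE of 0.17 and 0.18. Rgmb, a BMP co-receptor, scored 0.301 and 0.298 against 0.35 and 0.339 in AA, while Slc12a2, a sodium, potassium and chloride cotransporter, scored 0.28 and 0.226 in vehicle and 0.247 and 0.251 in AA, with overlap. Among Wnt targets, Ephb3 (an ephrin receptor that positions crypt cells) changed by 0.26 ± 0.18 and Tcf7l2 (the main Wnt-responsive factor of the crypt) by 0.24 ± 0.17, neither called.

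Genes of fat oxidation had 3 of 31 members (9.68%) in stretches, against 3.63% of all genes. Both AA libraries were higher in all 3 stretches concerned, as in 62% of all 784 stretches. Hadha and Hadhb encode the subunits of the mitochondrial trifunctional protein of fatty acid oxidation and start from opposite strands within the first of 2 stretches over Hadhb. That stretch scored 0.307 and 0.315 in vehicle and 0.421 and 0.384 in AA, and the second scored 0.229 and 0.228 in vehicle and 0.319 and 0.333 in AA. The changes were 0.31 ± 0.17 and 0.41 ± 0.20, with adjusted p of 0.677 and 0.614 by limma. Acsl5, which activates long-chain fatty acids to their CoA esters, scored 0.337 and 0.328 in vehicle and 0.467 and 0.419 in AA (change 0.35 ± 0.16, adjusted p = 0.566 by limma). In the prostaglandin list, Ptger4, the gene of prostaglandin E2 receptor EP4, scored 0.218 and 0.283 in vehicle and 0.327 and 0.29 in AA, and Cyp2c55, a cytochrome P450 that oxidises arachidonic acid, scored 0.351 and 0.323 against 0.384 and 0.316. Only the Ptger4 groups did not overlap, and its change was 0.24 ± 0.20.

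Stress and immediate early genes had 8 stretches, all above 0 (5 of 8 with median centring or quantile normalization) and none called, with a median of 0.21. Junb, an AP-1 subunit, shared a stretch of 20016 bp with Hook2 (chr8:84971914-84991929) that scored 0.342 and 0.325 in vehicle and 0.457 and 0.475 in AA. Both AA libraries were well above both vehicle libraries, by 0.41 ± 0.16 with an adjusted p of 0.406 by limma. Zfp36, which speeds the decay of cytokine mRNAs, scored 0.435 and 0.423 in vehicle and 0.583 and 0.516 in AA. Nfe2l2, the master factor of the antioxidant response, scored 0.368 and 0.388 in vehicle and 0.49 and 0.448 in AA. Zfp36l1, a relative of Zfp36, scored 0.37 and 0.352 in vehicle and 0.372 and 0.352 in AA, with the same range in both groups. Housekeeping genes had a change above 0 in all 5 stretches (3 when centred on the peaks of 5 to 10 kb) and a median of 0.20.

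Structural genes had a median change of 0.15, the same as all stretches, with 20 of 21 stretches above 0 (10 of 21 under quantile normalization) and none called. Actn1, a crosslinker of actin filaments, scored 0.339 and 0.363 in vehicle and 0.537 and 0.469 in AA in the first of its 2 stretches, a change of 0.44 ± 0.15 with the lowest adjusted p of all stretches, 0.282 by limma. Itga6, the laminin receptor chain of hemidesmosomes, scored 0.364 and 0.4 in vehicle and 0.397 and 0.384 in AA, with overlap. The following 4 genes are not in the structural list and were chosen after their values were seen. Epb41l2, a protein of the membrane skeleton, scored 0.338 and 0.322 in vehicle and 0.528 and 0.432 in AA (0.45 ± 0.16). Spint1 and Spint2, inhibitors of membrane-bound serine proteases of epithelia, changed by 0.41 ± 0.15 and 0.39 ± 0.14, with AA libraries at 0.533 and 0.524 for Spint1 against 0.36 and 0.401 in vehicle. The second Nedd4l stretch had the highest change of all, 0.49 ± 0.20, from 0.215 and 0.216 to 0.357 and 0.306. None of these was called, and under quantile normalization the changes at Actn1, Epb41l2 and the Junb stretch were 0.29, 0.30 and 0.26.

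**Figure D4:**
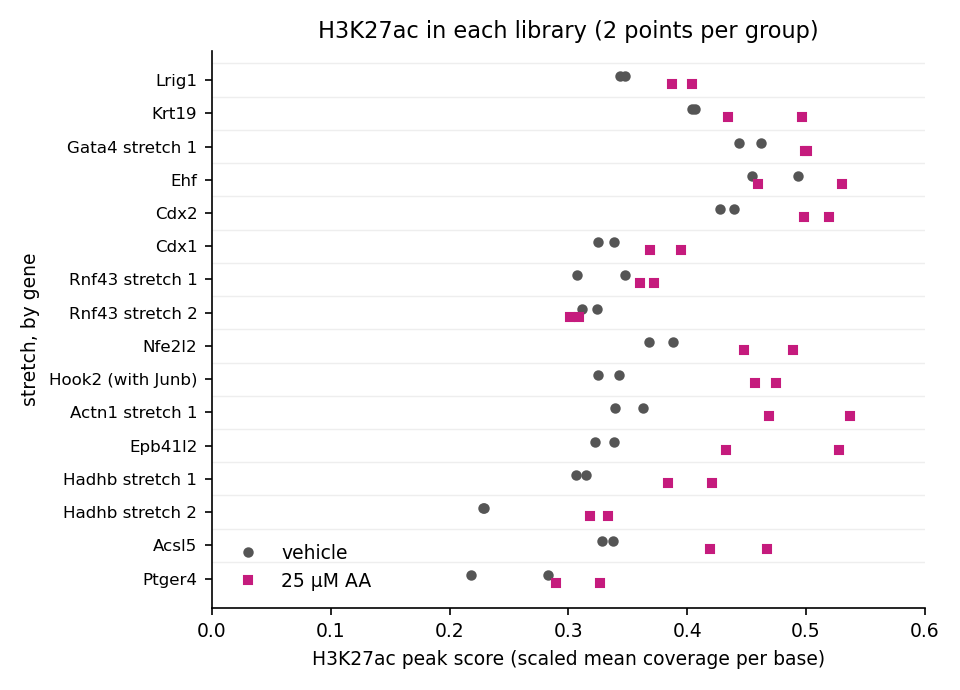
H3K27ac peak score (horizontal, scaled mean coverage per base) of 16 named stretches in each vehicle library (grey circles) and AA library (magenta squares), 2 points per group. Both AA points lie to the right of both vehicle points except at Ehf, where they overlap, and at the shorter Rnf43 stretch, where they lie to the left. The 16 were picked by hand and include Epb41l2, chosen after its values were seen. Slc12a2, Itga6, Cyp2c55 and Zfp36l1, whose groups overlapped, are not drawn. Of all 784 stretches, both AA libraries were higher in 486 (62%) and lower in 21.

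H3K4me3 lay over nearly all stretches. An H3K4me3 peak overlapped 782 of 784, against 52.5% of all H3K27ac peaks, and covered a median of 85.2% of the length (quartiles 70.6% and 94.5%). Cdx2, Onecut2 and Cdh1 (E-cadherin) were covered completely. The first Ide stretch and a stretch without a gene on chromosome 5 had no H3K4me3 peak, and at Kansl1, a subunit of a histone acetyltransferase complex, 8.49% was covered. The H3K4me3 score of the overlapping peaks had a median of 0.806 in the 383 stretches with a tabulated start in or within 1 kb. It was 0.371 in the other 401, which include all 33 stretches on chromosome 18, where no start was tabulated. The H3K27ac score barely differed between these groups, at 0.342 and 0.329. Across the 782 stretches the levels of the marks had a Spearman correlation of 0.413 and their changes one of 0.243, as descriptions over regions that share libraries within each mark.

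Some H3K4me3 peaks inside the stretches passed the test, in both directions. Of 1671 overlapping H3K4me3 peaks, 37 rose and 29 fell in AA by limma, beside 1.54% and 1.38% of all 58548 H3K4me3 peaks. These shares were near the background, which makes them no result about the stretches. The number of calls changed with the library that was left out. In each such fit, the within-group spread of a peak was measured only between the 2 libraries of the other group. Without vehicle library 1 or without vehicle library 2, none of the 1671 was called (36 and 32 of all H3K4me3 peaks), and without the trend and robust options of limma none was either. Without AA library 1 there were 102 higher and 189 lower, and without AA library 2 305 higher and 71 lower, while 8478 and 8903 of all 58548 H3K4me3 peaks were called in these 2 fits. After centring each library on its median 262 were called higher and 18 lower (6106 of all peaks called), and after quantile normalization 25 and 105 (2368 of all peaks). The AA libraries were also shallower for this mark, with 1.37 and 1.46 reads per base at the median peak against 3.38 and 2.35 in vehicle, and the part of depth in these calls was not tested.

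The peaks that rose included some at factors of endoderm. Foxa1, a pioneer factor, had an H3K4me3 peak of 14852 bp over its start that scored 1.32 and 1.27 in vehicle and 1.94 and 1.84 in AA. Both AA libraries were higher, by 0.53 ± 0.11 (adjusted p = 0.000622 by limma). Gata5, a zinc-finger factor of endoderm, scored 1.29 and 1.22 in vehicle and 2.09 and 1.8 in AA (0.62 ± 0.11, adjusted p = 3.21e-05 by limma), and Gata6 1.56 and 1.51 against 2.15 and 2.04. Cltb, a clathrin light chain, scored 0.851 and 0.695 in vehicle and 1.59 and 1.2 in AA, a change of 0.83 ± 0.14. Cnnm4, a magnesium transporter of the basolateral membrane, scored 1.37 and 1.4 against 2.11 and 1.9. In the H3K27ac stretches at these genes, the changes were 0.19 at Foxa1, 0.05 at Gata5, 0.11 at Gata6, 0.20 at Cltb and 0.33 at Cnnm4, none called. Apart from Foxa1 and Gata6, which are in the identity list, these were chosen after their values were seen.

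The 29 peaks that fell were weaker, with a median score of 0.383 against 1.24 for the 37 that rose. At Sema7a, a membrane-anchored semaphorin, a peak of 19624 bp reached over the start. It scored 1.31 and 1.25 in vehicle and 0.86 and 0.676 in AA, a change of -0.73 ± 0.15 with an adjusted p of 0.000234 by limma. The H3K27ac stretch that this peak overlapped scored 0.296 and 0.318 in vehicle and 0.383 and 0.361 in AA. At Hipk2, a nuclear kinase, a peak scored 0.26 and 0.294 in vehicle and 0.101 and 0.0535 in AA. At Cyp2c55 it was 0.654 and 0.699 against 0.327 and 0.304, and at Oat, which encodes ornithine aminotransferase, 1.09 and 1.07 against 0.831 and 0.685. The AA libraries were both lower at all 4. Of the 402 H3K4me3 peaks in stretches that held a start, 19 rose (4.73%) and 6 fell (1.49%) with a median change of 0.21, beside 5.08% and 1.39% of all start-bearing H3K4me3 peaks. Of the 1269 without a tabulated start 18 rose (1.42%) and 23 fell (1.81%) with a median of -0.19, beside 0.791% and 1.37% of all such peaks. Peaks on chromosome 18, such as the one at Gata6, count among the 1269 because no start was tabulated there. The score levels of the 2 kinds differed as well, with medians of 0.885 and 0.196. All H3K4me3 peaks divided the same way, with medians of 0.19 and -0.30, so the division was not particular to the stretches. In the 196 stretches that held peaks of both kinds, the start-bearing peaks changed by a median of 0.41 more than the others, and by more in 154.

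Per stretch, with overlapping H3K4me3 peaks weighted by the bases they share with it, H3K4me3 changed by a median of 0.09 and was above 0 in 466 of 782. Both marks were above 0 in 442 stretches, H3K27ac alone in 257, H3K4me3 alone in 24 and neither in 59. The H3K4me3 change minus the H3K27ac change had a median of -0.08 over the stretches and -0.18 over all 32840 H3K27ac peaks that overlapped an H3K4me3 peak. In a model of both marks over 8 libraries, the difference was called in 0 of 782 stretches by limma, beside 0.0365% of all, with the lowest adjusted p at 0.0989 and 85 stretches at an unadjusted p under 0.05 (background 13.7%). Its typical SE was 0.22, which limits how small a difference between the marks could be resolved at any stretch. The direction of the difference depended on the scaling: with each library centred on its median it was called with H3K4me3 above H3K27ac in 44 stretches and below in 1, beside 4.31% of all, and the median turned to 0.24. Without AA library 1 of H3K4me3 the median was -0.17, and without AA library 2 of H3K4me3 it turned to 0.02. The count of 0 called stretches did not hold in every fit with 1 library left out.

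**Figure D5:**
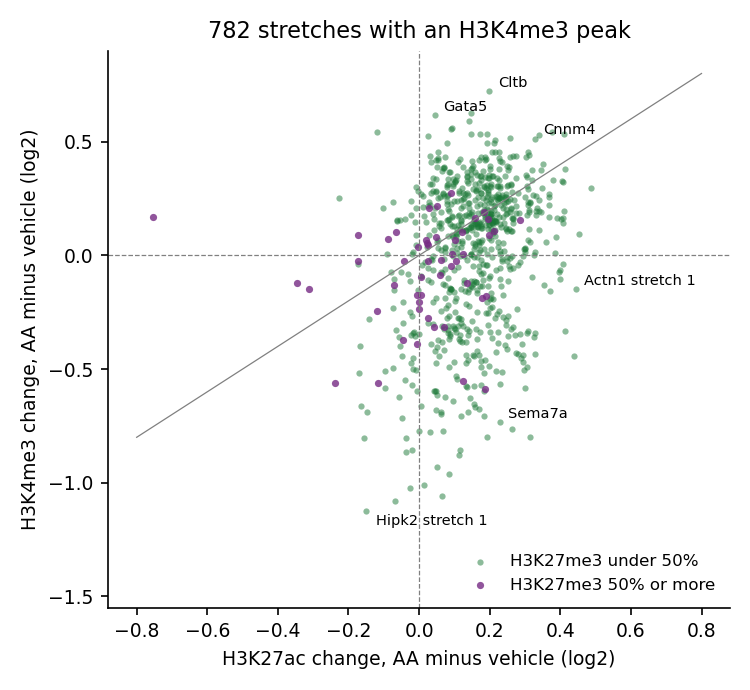
Change in H3K4me3 (vertical, log2, AA minus vehicle, peaks weighted by overlap) against change in H3K27ac (horizontal, same scale) for the 782 stretches with an H3K4me3 peak. Purple points are stretches with H3K27me3 over 50% or more of their length and the solid line marks equal change. The H3K4me3 changes reach from Hipk2 and Sema7a below 0 to Cltb and Gata5 above it, while most H3K27ac changes sit between -0.05 and 0.33.

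H3K27me3 peaks overlapped 239 stretches, 384 peaks in all, with a median change of -0.09 against 0.12 over all H3K27me3 peaks. That median was -0.01 without AA library 1, -0.17 without AA library 2, -0.03 without vehicle library 2 and -0.0063 among the strongest 75% of peaks. Of these, 4 rose and 4 fell by limma, beside 0.498% and 0.0475% of all H3K27me3 peaks. One of the rises lay at Ccnd2, the gene of cyclin D2, where the peak scored 0.292 and 0.284 in vehicle and 0.442 and 0.414 in AA (0.52 ± 0.09), while the H3K27ac stretch scored 0.296 and 0.25 against 0.271 and 0.297. At Bcl11a, a zinc-finger repressor, a peak of 3481 bp scored 0.0657 and 0.0651 in vehicle and 0.213 and 0.282 in AA, and the H3K27ac stretch there scored 0.342 and 0.286 in vehicle and 0.288 and 0.23 in AA. Groups did not overlap in H3K27me3 at either gene, and in H3K27ac they overlapped at both. All 4 falls lay in stretches of the H3K27me3-covered group, and none of the 4 rises was called when any 1 library was left out.

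A second peak caller gave narrower regions. MACS2 called 355 H3K27ac peaks in 268 of the stretches, with a median length of 330 bp, and none in the other 516. Of the 355, 0 were called in either direction by limma, beside 0.0% of all 9817 MACS2 peaks, with a lowest adjusted p of 0.675. At an unadjusted p under 0.05 there were 60, a larger share than the 7.07% of all MACS2 peaks. Some of these 60 lay in the same stretch, among them peaks at the start of chromosome 9, where values are uncertain. The median change of the 355 was 0.25, against 0.26 over all MACS2 peaks, and both AA libraries exceeded both vehicle libraries in 124, beside 37.8% of all. The highest of these changes lay at Gna11, the gene of a G protein alpha subunit, where a peak scored 0.424 and 0.495 in vehicle and 1.71 and 0.886 in AA, and the stretch around it scored 0.306 and 0.28 against 0.432 and 0.388.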

How the data were processed

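CUT&RUN peaks of 3 histone marks were called by the authors with SEACR and MACS2 on mm10, per the submitters' processing notes. Not stated in the sources here are versions, aligner, scaling and whether libraries were pooled for peak calling. The deposited signal is a peak score per peak and library, a mean coverage per base times a factor, since score times length came out in whole steps for at least 99.99% of values below 1000 steps (tolerance 0.1 step). Rows named Control were taken as vehicle. No IgG or input library was analysed here.

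Log2(score + pseudocount), with the 5th percentile of positive scores as pseudocount (0.0693 for H3K27ac, 0.0253 for H3K4me3, 0.0329 for H3K27me3), was tested with limma 3.58.1 (R 4.3.3, trend and robust) over all peaks of a mark, with Benjamini-Hochberg adjustment and a threshold of 0.05. Fold changes are on that scale and understate changes of weak peaks. The mark by treatment term was fitted over 8 libraries. The scripts were tested on simulated data. Named were the 10 longest stretches, called ones, up to 4 per gene list, the extremes of H3K4me3 cover and the neighbours of the length threshold. Members, lists and tests were chosen with earlier results of these data known. Scaling, pseudocount, filter, block, left-out libraries and length were varied. Starts, promoters and genes came from RefSeq tables.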

Additional observations from a re-analysis of the deposited data

How the results depend on the processing

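With 2 libraries per group no sample could be tested as an outlier. The median H3K27ac change of 0.15 was 0.0821 with median centring, 0.025 with quantile normalization and 0.0059 with centring on 5 to 10 kb peaks, and was 0.25 in MACS2 peaks. Leaving out 1 library gave 0.11 to 0.20, 0 stretches called higher and 0 to 1 lower. The trend over summed coverage called 2 higher, and the 5 to 10 kb centring 1 lower. Of 69 named stretches, 31 changed sign under at least 1 alternative, none while called in either fit.

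For H3K4me3 peaks in stretches, the 37 higher and 29 lower became 262 and 18 with median centring, 25 and 105 with quantile normalization, 0 and 0 without trend and robust, and 16 and 10 at an adjusted p of 0.01. Leaving out 1 library gave 0 to 305 higher and 0 to 189 lower. The median of -0.04 turned to 0.18 with median centring and ran from -0.083 to 0.037 with 1 library left out. For H3K27me3, the 4 higher and 4 lower became 1 and 3 with either scaling, 0 and 0 without trend and robust, and 2 and 2 at 0.01. Leaving out 1 library gave 0 higher and 2 lower. The median of -0.09 ran from -0.17 to -0.01 with 1 library left out and was -0.0063 in the strongest 75% of peaks, -0.20 with quantile normalization, and -0.33, with 3 higher and 0 lower, without the stretches under H3K27me3. For H3K4me3 minus H3K27ac, median centring called 44 above and 1 below with a median of 0.24, and quantile normalization 0 above and 3 below. Leaving out 1 library gave medians from -0.174 to 0.0229, and the count of called stretches was not 0 in every such fit. The cause was not tested.

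The libraries share only replicate numbers, and over the 784 stretches the within-group deviations of same-numbered libraries had a correlation of 0.0858. With a replicate block, 0 stretches were called for H3K27ac, beside 280 of all 62547 H3K27ac peaks, and 0 differences between marks. In the same setting 71 of the 1671 overlapping H3K4me3 peaks were called higher and 34 lower, beside 2522 of all 58548 H3K4me3 peaks in either direction.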
